A study of Drosophila melanogaster with 3 samples.

Results

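The genomic sites described here are ChIP-seq summits that ranked among the strongest of replicates 1 and 2 of a zen-GFP experiment in Drosophila embryos and had no equally strong replicate 3 summit at the same position. A summit is the base of highest enrichment that the authors' peak caller gave for a peak. Members were chosen by the deposited scores: in each library, as many top-scoring summits as the authors' thresholded set holds, on chromosome arms 2L, 2R, 3L, 3R, 4 and X, were called strong. A member was a strong replicate 1 summit with a strong replicate 2 summit within 100 bp and no strong replicate 3 summit within 100 bp. The rule gave 1121 members, 15.1% of the strong replicate 1 summits, in 1119 peak intervals. This share follows from the rule and is a description. The same kind of set for replicates 1 and 3 without 2 held 924 summits, 12.5% of the strong replicate 1 summits. For replicates 2 and 3 without 1 it held 651, 8.79% of the strong replicate 2 summits. Replicate 1's full list held 29999 summits on these arms.

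The study immunoprecipitated chromatin from a transgenic Drosophila melanogaster line that stably carried zen with GFP fused to its C terminus, using an antibody against GFP. Whole embryos of both sexes, pooled and aged 0 to 4 h, were used, and chromatin was sonicated to 200 to 800 bp. All 3 libraries were biological replicates of this single condition, each set by the authors against the same control alignments. No library from embryos without the tagged protein was analysed here, and the sources used here give neither the promoter of the transgene nor the state of the endogenous zen gene. Peaks from whole embryos do not say in which cells a site was bound.

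Zerknüllt (zen) is a homeodomain transcription factor made in the dorsal-most cells of the early embryo, where high BMP signalling by Dpp maintains it, and it is required for the amnioserosa, an extraembryonic epithelium. Homeodomains of its class bind short AT-rich words with a TAAT core. Zelda, an abundant maternal zinc finger protein, binds CAGGTA and related words and opens chromatin at early enhancers, so CAGGTA is common at regions bound by many factors at this stage. The strength of a ChIP-seq peak also depends on how open a region is and on how the library was made.

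The sequences around 10 members are shown so that the strongest sites and the sites with both motif cores can be read directly. They are the 6 members of lowest summed rank in replicates 1 and 2, and the 4 members with both TAATTA and CAGGTA within 50 bp of the summit, among 696 members whose 101-base window held no annotated exon and lay on the arms used for this display. The letters come from the RefSeq Release 6 genome (dm6 coordinates), plus strand, 5′ to 3′, 50 bases on either side of the summit. Capitals mark TAATTA and the related TAATGA as well as CAGGTA, read on either strand.
Doc2, upstream (chr3L:9020917-9021017): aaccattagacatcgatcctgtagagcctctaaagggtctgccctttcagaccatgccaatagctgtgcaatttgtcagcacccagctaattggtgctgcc
Between genes, nearest protein-coding start plh (chr3R:5039128-5039228): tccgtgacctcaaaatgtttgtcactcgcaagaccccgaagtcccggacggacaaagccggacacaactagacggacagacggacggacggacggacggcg
Svil, intron (chr3L:2385772-2385872): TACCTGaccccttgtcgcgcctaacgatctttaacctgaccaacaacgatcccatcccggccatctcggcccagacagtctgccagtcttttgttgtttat
bbg, intron (chr3L:14452942-14453042): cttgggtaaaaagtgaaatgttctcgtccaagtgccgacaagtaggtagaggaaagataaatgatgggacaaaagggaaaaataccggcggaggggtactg
Between genes, nearest protein-coding start Toll-6 (chr3L:15330055-15330155): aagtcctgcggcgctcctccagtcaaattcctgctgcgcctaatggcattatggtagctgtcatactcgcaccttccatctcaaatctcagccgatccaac
siz, intron (chr3L:21067699-21067799): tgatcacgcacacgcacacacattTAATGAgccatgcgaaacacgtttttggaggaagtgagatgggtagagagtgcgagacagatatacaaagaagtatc
heca, upstream (chr3R:30276067-30276167): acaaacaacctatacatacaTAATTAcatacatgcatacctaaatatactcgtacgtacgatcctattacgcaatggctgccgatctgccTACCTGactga
Between genes, nearest protein-coding start CG11629 (chr2L:21877428-21877528): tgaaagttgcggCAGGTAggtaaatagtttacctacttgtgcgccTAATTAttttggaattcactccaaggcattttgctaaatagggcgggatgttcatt
baz, intron (chrX:17179718-17179818): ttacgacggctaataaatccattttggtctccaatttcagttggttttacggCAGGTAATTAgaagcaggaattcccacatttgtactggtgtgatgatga
Between genes, nearest protein-coding start Acp26Ab (chr2L:5890938-5891038): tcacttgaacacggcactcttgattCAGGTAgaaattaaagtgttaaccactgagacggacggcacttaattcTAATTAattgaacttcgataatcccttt

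In these windows the Svil member carried a CAGGTA match on the minus strand at the left edge, and the siz member carried TAATGA. The Doc2, plh, bbg and Toll-6 windows held none of the 3 words. In baz, which encodes the polarity protein Bazooka, the words overlapped in one stretch of the plus strand. The members with both words were not chosen by rank. The heca member ranked 2064 in replicate 1 and 2513 in replicate 2, and the member near Acp26Ab ranked 5348 in replicate 1 and 4194 in replicate 2.

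Most members were not absent from replicate 3. Replicate 3's full list of 30000 summits held a weaker summit within 100 bp of 700 of the 1121 members (62.4%). Those weaker summits had a median rank of 10015 in replicate 3, with quartiles of 8553 and 12874, and 350 of the 700 ranked between 7406 and 10000. In all, 397 members (35.4%) had a strong replicate 3 summit displaced by 101 to 500 bp, 123 of them among the 700, and the interval of 364 of them overlapped a strong replicate 3 interval. Among all 2298 strong replicate 1 summits with no strong replicate 3 summit within 100 bp, members included, 61.0% had a weaker one there. Of the same 2298, 726 had a strong replicate 3 summit 101 to 500 bp away. Neither trait was particular to members. Counting each member once, with the displaced summit first, 397 had a displaced strong summit, 577 (51.5%) had only a weaker replicate 3 summit within 100 bp, and 147 (13.1%) had neither. The interval held more than 1 strong replicate 1 summit for 20.2% of displaced members. This was so for 0.52% of those with only a weaker summit and 0% of those with neither. The word displaced means here that a strong replicate 3 summit lay 101 to 500 bp away, not that a summit moved. Only 20 members had no replicate 3 summit of any strength within 500 bp. The members are therefore called here by their ranks in the strong sets and not by absence from replicate 3.

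**Figure D1:**
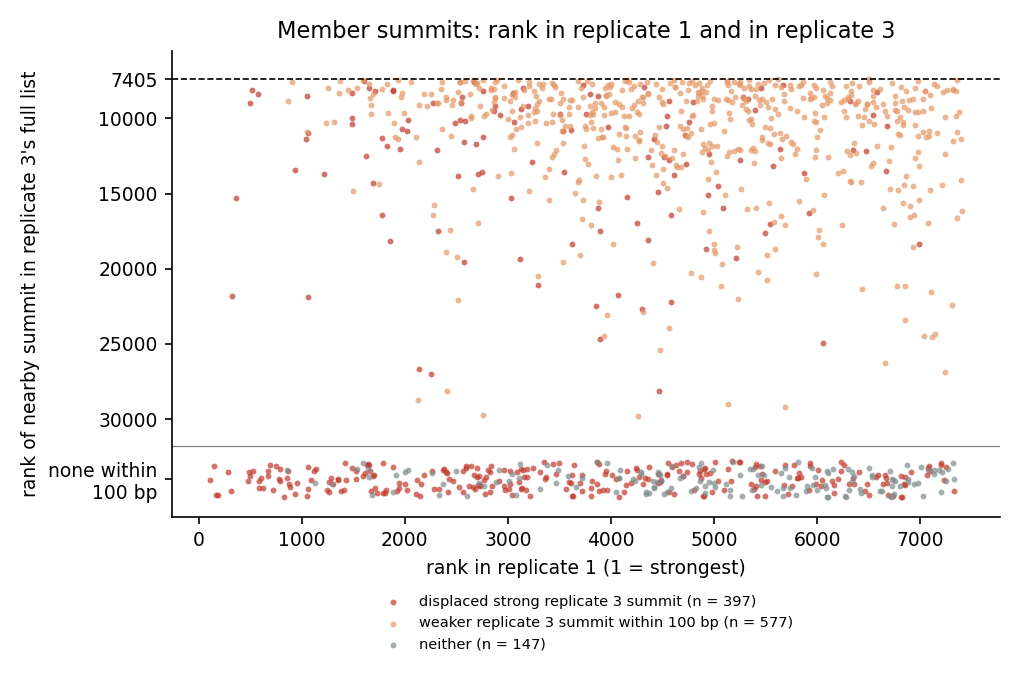
Rank of each member in replicate 1 (horizontal axis, 1 is the strongest) against the rank of a replicate 3 summit within 100 bp in the full replicate 3 list (vertical axis, stronger at the top), with members that have none in the strip at the bottom. Of 1121 members, 700 lie above the strip, all below the dashed line at the last strong rank, and 421 lie in it.

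Among themselves the members were of middling strength. Their replicate 1 ranks ran from 109 to the last strong rank with a median of 4497, and their replicate 2 ranks from 84 to 7402 with a median of 4335. The 4183 summits strong in all 3 libraries had medians of 2366 in replicate 1 and 2433 in replicate 2. The rule held these to a rank limit in replicate 3 as well, so this contrast is a description. Members and their replicate 2 summits lay a median of 26 bp apart. At the limits of the rule, 5 members had their replicate 2 summit at exactly 100 bp and 4 replicate 1 summits missed it at 101 bp. Likewise 7 members had a strong replicate 3 summit at 101 bp, and 5 shared summits had theirs at 100 bp. The score at the last strong rank and at the next rank was 109.225 and 109.212 in replicate 1, 70.1815 and 70.1771 in replicate 2, and 78.3841 and 78.3694 in replicate 3, so neighbouring summits on either side of the limit hardly differed. In the authors' set cut at an irreproducible discovery rate (IDR, a measure of how well replicates rank peaks alike), 936 members (83.5%) had a summit within 100 bp, with a median rank of 5154 in that set. The set was derived from these same libraries, so this share is a description. The same share was not computed for other strong summits, so it cannot be called high or low.

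The kind of member changed with strength. Rank and distance to strong replicate 3 summits were both used by the rule, so these counts are a description. The same division by rank was not made for other strong replicate 1 summits. Of the 1000 strongest replicate 1 summits, 38 (3.8%) were members, and 35 of these 38 had a strong replicate 3 summit 101 to 500 bp away. Of the next 1000 replicate 1 summits, 96 (9.6%) were members, 61 of them with a displaced strong summit. Of the 2000 after these, 324 (16.2%) were members, 135 of them displaced. Beyond rank 4000 there were 663 members (19.5%), of which 166 were displaced and 385 had only a weaker replicate 3 summit within 100 bp. Displaced members had median ranks of 3541 in replicate 1 and 3348 in replicate 2, those with only a weaker summit 4877 and 4732, and those with neither 5152 and 4794.

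**Figure D2:**
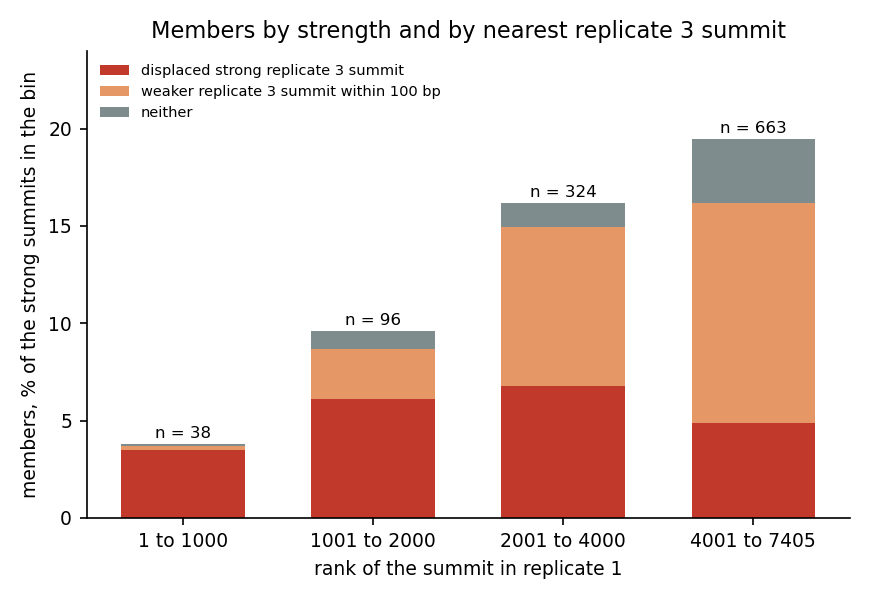
Members as a percentage of the strong replicate 1 summits in 4 rank bins, divided by the nearest replicate 3 summit, with the number of members above each bar. In the strongest bin 35 of 38 members have a strong replicate 3 summit 101 to 500 bp away, and in the weakest bin 166 of 663 do. The rule used both rank and this distance, so the bars are a description.

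The 25 members of lowest summed rank all had a strong replicate 3 summit 101 to 214 bp away, and 24 of them overlapped a strong replicate 3 interval. Some lay in intervals with more than 1 strong replicate 1 summit, among them those at Doc2, plh, Svil, bbg and pnr. Others, such as those near tup and in siz, were the only strong replicate 1 summit of their interval. Of these 25, 13 lay in introns, 9 between genes, 2 in 3′ UTRs and 1 in another exon, and 4 lay within 500 bp of a transcript start. The strongest was upstream of Doc2, which encodes a T-box factor of the amnioserosa and dorsal ectoderm: its interval chr3L:9020482-9021430 had its summit 1721 bp upstream of the Doc2 start. This summit ranked 109 in replicate 1 and 84 in replicate 2, and the nearest strong replicate 3 summit lay 185 bp away at rank 342. The Doc2 region thus held strong summits in all 3 libraries. Its replicate 1 interval held 2 strong summits, this member among them. Whether the other one matched the replicate 3 summit was not examined.

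The intron of wun, which encodes a lipid phosphate phosphatase that repels migrating germ cells, also held members beside a strong replicate 3 summit. One interval, chr2R:9406520-9407060, held a pair of members with summits at 9406694 and 9406899. They ranked 174 and 858 in replicate 1, and 114 and 323 in replicate 2. A single strong replicate 3 summit of rank 615 lay 103 bp from the first and 102 bp from the second, between them.

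Other strong members lay in or near developmental genes. The member 14279 bp upstream of tup, a LIM homeodomain gene required in the amnioserosa, ranked 193 in replicate 1 and 245 in replicate 2, with a strong replicate 3 summit of rank 748 at 151 bp. It lay in an exon outside coding sequence and UTRs, 1929 bp downstream of the start of lncRNA:CR44737. In the count by gene given below, tup had no member. An intronic member of pnr, the GATA factor of the dorsal ectoderm, ranked 329 in replicate 1 and 760 in replicate 2. Replicate 3 had both a weak summit of rank 21845 at 4 bp and a strong one of rank 256 at 209 bp. In bbg, which encodes a PDZ protein, the pattern recurred, with ranks of 367 in replicate 1 and 223 in replicate 2, a replicate 3 summit of rank 15322 at 10 bp and one of rank 78 at 209 bp. In these introns replicate 3 listed both positions and scored the other one higher. In each, the replicate 1 interval also held 2 strong summits, and how replicate 1 ranked the second was not examined.

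Among signalling genes, a member in an intron of fz2, a Wnt receptor gene, ranked 677 in replicate 1 and 673 in replicate 2, with a strong replicate 3 summit of rank 415 at 103 bp. One in shn, whose zinc finger product acts with Smads in Dpp responses, ranked 623 in replicate 1 and 792 in replicate 2, against 3569 for the replicate 3 summit 183 bp away. One in ths, which encodes an FGF ligand, ranked 863 in replicate 1 and 499 in replicate 2, and its replicate 3 neighbour ranked 4402. The member 3244 bp upstream of Wnt2 ranked 582 in replicate 1 and 501 in replicate 2, against 1693 for the replicate 3 summit 194 bp away. A member 304 bp upstream of aos, which encodes the secreted EGF receptor inhibitor Argos, ranked 785 in replicate 1 and 749 in replicate 2, and a replicate 3 summit of rank 905 lay 102 bp away. The rest of the 25 lay in or nearest to plh, Svil, CG10570, CAH15, Toll-6, siz, Su(z)2, CG43203, CG13955, Nrt, Hs6st, CG42342, Dhc64C and CREG.

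Members with no strong replicate 3 summit within 500 bp numbered 724 (64.6%). The 6 of lowest summed rank among them are given here, a choice made with their values known. The first lay between genes, 4188 bp downstream of the start of CG46443, and ranked 908 in replicate 1, 860 in replicate 2 and 7589 in replicate 3. At rpr, the cell death gene reaper, a member lay 36792 bp downstream of the start and ranked 1128 in replicate 1 and 740 in replicate 2, and replicate 3 listed nothing within 100 bp. The member 532 bp upstream of phtm, an ecdysteroid synthesis gene, ranked 856 in replicate 1 and 1100 in replicate 2, again with no replicate 3 summit within 100 bp. One in an intron of boi, which encodes a Hedgehog co-receptor, ranked 865 in replicate 1 and 1225 in replicate 2, against 8835 in replicate 3. One 3545 bp upstream of hb, the gap gene hunchback, ranked 1495 in replicate 1 and 620 in replicate 2, against 14826 in replicate 3. One in an intron of dpp, the BMP ligand gene, ranked 1253 in replicate 1 and 1390 in replicate 2, against 8007 in replicate 3, and a strong replicate 3 summit of rank 3251 lay 502 bp away, just past the limit.

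The 20 members without any replicate 3 summit within 500 bp had median ranks of 5898 in replicate 1 and 5096 in replicate 2, and 13 of them lay within 500 bp of a transcript start. The pair named next was chosen after the values were seen. The strongest in replicate 1 ranked 2267, 9386 bp downstream of the start of drm, a zinc finger gene of the gut, and it ranked 2899 in replicate 2. The strongest in replicate 2 ranked 2138 and lay 59 bp downstream of a start of LpR1, a lipophorin receptor gene, where replicate 1 ranked it 6109. Only 7 of the 20 had a summit of the IDR set within 100 bp.

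Members lay farther from transcript starts than the sites shared by all libraries. Of 1121 members, 420 (37.5%, 95% Wilson interval 34.7 to 40.3) lay within 500 bp of an Ensembl transcript start, against 2072 of 4183 shared summits (49.5%, 48.02 to 51.05). For all strong replicate 1 summits the share was 46.8%, and for the 1710 summits strong in replicate 3 alone it was 38.5% (36.3 to 40.9). The median distance to a start was 1339 bp for members, 524 bp for shared summits and 1057.5 bp for those strong in replicate 3 alone. Starts of transposable element genes are part of this annotation; with protein-coding starts alone the shares were 33.7% for members and 45.5% for shared summits. The intervals count each summit as separate and cover counting error only, and the difference between sets was not tested, since sites of the same libraries are not replicates.

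Introns held 477 members (42.6%) and intergenic stretches 462 (41.2%), against 38.3% and 47.3% of shared summits. Of members, 656 (58.5%, 55.6 to 61.4) lay in an intron or between genes and over 500 bp from a start, against 47.0% (45.5 to 48.5) of shared summits and 57.6% of those strong in replicate 3 alone. For the sites strong in replicate 3 alone the interval was 55.2 to 59.9, and no difference between sets was tested. By kind, 39.0% of displaced members, 34.7% of those with only a weaker replicate 3 summit and 44.2% of those with neither lay within 500 bp of a start. The share of strong replicate 1 summits that were members ran from 13.6% on chromosome 4 (8 of 59) to 16.1% on 3L (250 of 1555).

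**Figure D3:**
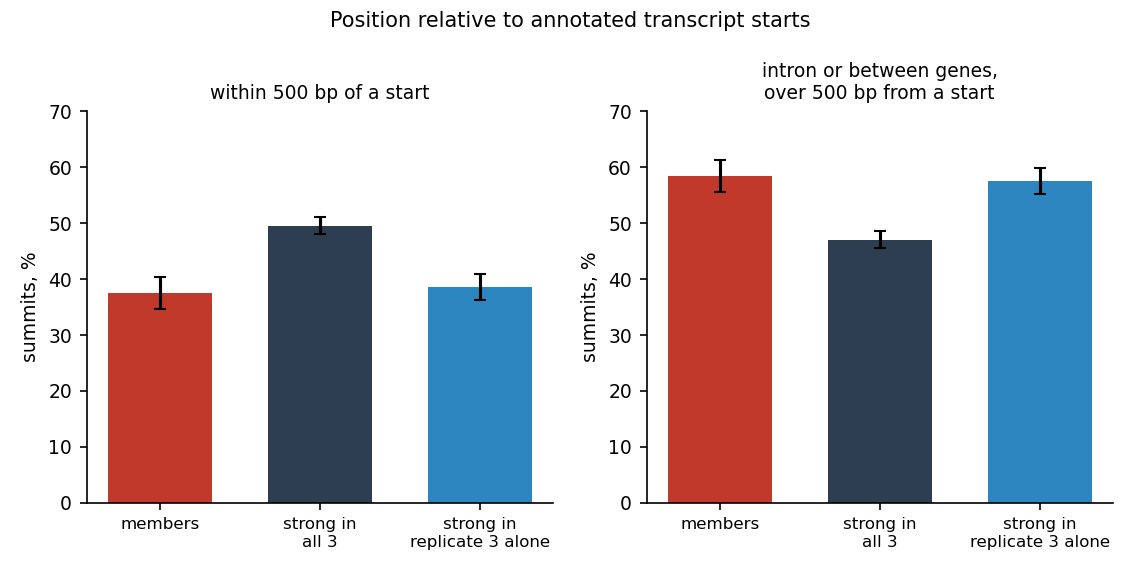
Percentage of summits within 500 bp of an annotated transcript start (left) and in an intron or between genes over 500 bp from a start (right), for members, summits strong in all 3 replicates and summits strong in replicate 3 alone, with 95% Wilson intervals as error bars. Members stand at 37.5% and 58.5%, and shared summits at 49.5% and 47.0%.

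Sequence was not used by the rule, so motifs could be tested. Each member's 201-bp window was paired with a window centred 1000 bp to the lower-coordinate side, and 19 motifs were searched on both strands; windows with a match at one place only were compared by a binomial test, exact and two-sided, and p-values were adjusted over the 19 motifs by the Benjamini-Hochberg method. CAGGTA, the Zelda core, was found in 173 member windows (15.4%) and 59 flanks (5.26%). The log2 ratio was 1.54 and the adjusted p 3.18e-14, with 163 members matching at the summit alone and 49 at the flank alone. In genome windows placed every 5000 bp, 4.64% held CAGGTA. The test counts each member as separate, although 61 lay within 1000 bp of another.

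TAATTA, the homeodomain core, did not pass against the lower-coordinate flank. It was found in 177 member windows (15.8%) and 142 flanks (12.7%), a log2 ratio of 0.32 with an unadjusted p of 0.0416 and an adjusted p of 0.0988 in the exact binomial test. Between summit and flank, 157 members matched at the summit alone and 122 at the flank alone. Against the flank on the higher-coordinate side it passed, with a log2 ratio of 0.43 and an adjusted p of 0.0107 in the exact test, and it passed in 5 of 15 alternatives in all. Over the 15, the adjusted p from this exact test ran from 1.18e-25 to 0.443. The lowest value came from leaving out replicate 3, which loosened the rule to 5304 summits and so does not describe the members alone. The related word TAATGA, to which some homeodomains bind, passed with 203 member windows (18.1%) against 147 flanks (13.1%), a log2 ratio of 0.46 and an adjusted p of 0.00475. The scrambled controls did not pass: TAAATT was in 266 member windows and 281 flanks, and CGAGTA in 68 member windows and 63 flanks.

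In all, 6 of the 19 motifs were higher at member summits, 1 was lower and 12 did not pass. TATCGATA, the DNA replication-related element (DRE) of housekeeping promoters, was in 33 member windows against 4 flanks (exact binomial test, adjusted p = 6.87e-06). Of these 33 windows, 30 lay within 500 bp of a start. The promoter word GGTCACAC (Motif 1) was in 26 member windows against 6 flanks (exact binomial test, adjusted p = 0.00254). The repeat CACACA was in 263 member windows against 168 flanks (exact binomial test, adjusted p = 1.72e-06), and GAGAGA, which the GAGA factor binds, in 131 against 92 (exact binomial test, adjusted p = 0.0165). TATAAA was lower, in 188 member windows against 243 flanks, with an adjusted p of 0.0126. Among all strong replicate 1 summits the shares of windows with a match were 10.4% for CAGGTA, 19.03% for TAATTA, 17.6% for TAATGA, 4.79% for TATCGATA, 3.46% for GGTCACAC, 19.3% for CACACA, 10.5% for GAGAGA and 26.8% for TATAAA.

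Words of other embryonic factors did not pass at members, with adjusted p-values of 0.19 to 0.80 in the same exact test. GATAAG, read by GATA factors such as Pannier, was in 12.1% of members and 11.3% of all strong replicate 1 summits. GGTGTGA, a T-box site, was in 2.23% of members and 2.38% of all. The E-box CACCTG of Snail was in 6.87% of members and 6.37% of all, and CATATG of Twist in 6.69% of members and 6.44% of all. TTCNNNGAA, read by STAT, was in 7.23% of members and 5.86% of all, and GGGNTTTCC, read by Rel proteins such as Dorsal, in 1.07% of members and 0.69% of all. TTTATGG of Caudal was in 8.56% of members and 6.39% of all, TGACAG of TALE homeodomains in 10.4% of members and 8.4% of all, and TAATCC of Bicoid in 8.03% of members and 7.20% of all.

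**Figure D4:**
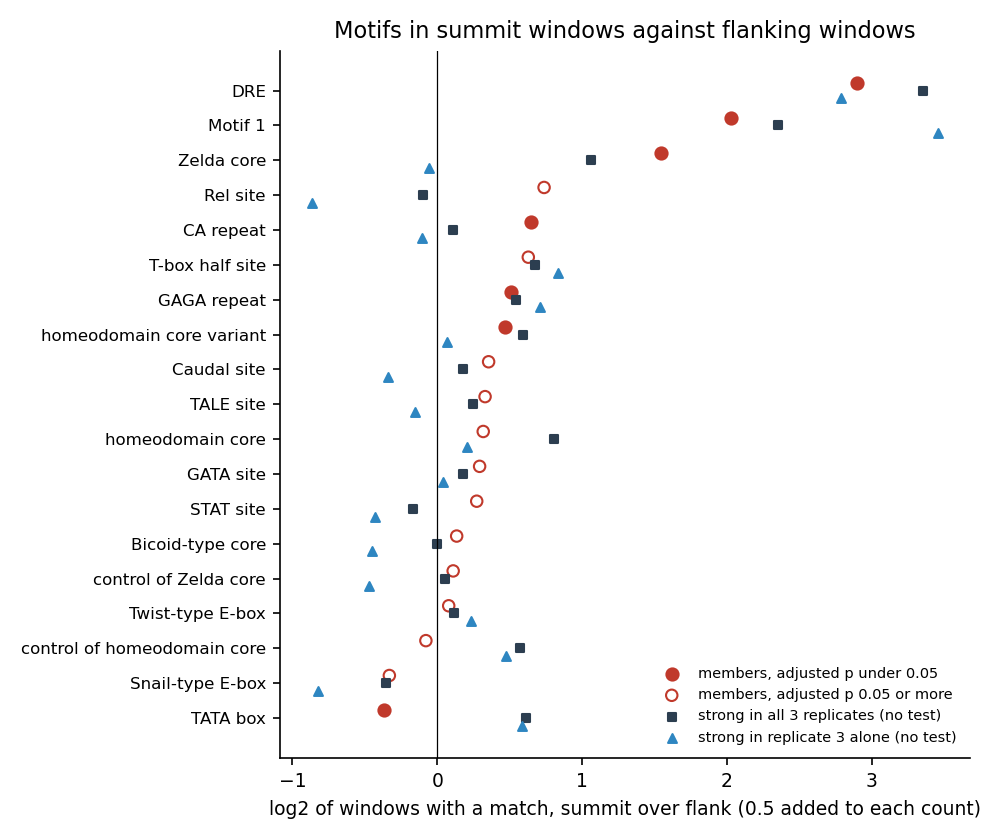
Log2 ratio of the number of summit windows to the number of flanking windows with a match, for 19 motifs listed by name, in members (circles, filled where the adjusted p was under 0.05), in summits strong in all 3 replicates (squares) and in summits strong in replicate 3 alone (triangles). The Zelda core stands at 1.54 in members, 1.06 in shared summits and −0.05 in summits strong in replicate 3 alone.

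Of the sets of strong summits compared, members carried CAGGTA most often. Its share was 15.4% in members (95% Wilson interval 13.4 to 17.7), 10.7% in summits strong in replicate 1 alone, 11.9% in those strong in replicate 2 alone, 10.02% (9.14 to 10.96) in those shared by all 3 and 10.4% in all strong replicate 1 summits. It was 7.37% in summits strong in replicates 2 and 3 without 1, 5.52% in those strong in 1 and 3 without 2, and 4.50% (3.62 to 5.59) in those strong in replicate 3 alone. TAATTA ran otherwise: 15.8% in members (13.8 to 18.04), 20.3% (19.2 to 21.6) in shared summits and 15.1% in those strong in replicate 3 alone. TATAAA was found at 16.8% of members, 29.9% of shared summits and 33.98% of those strong in replicate 3 alone. The scrambled control TAAATT was in 23.7% of members, 34.8% of shared summits and 36.7% of those strong in replicate 3 alone. Summits strong in replicate 1 alone and in replicate 2 alone lay nearer to members than shared summits did. They had TATAAA in 22.3% and 18.7%, TAAATT in 29.2% and 26%, and TAATTA in 16.8% and 13.9%. Those strong in 1 and 3 without 2, and in 2 and 3 without 1, had TATAAA in 30.8% and 27.5%, and TAAATT in 38.0% and 34.6%. Their TAATTA shares were 19.8% and 16.4%. No test of these differences between sets was made.

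Base composition moved with these shares. The mean GC content of the 201-bp window was 43.9% ± 7.54 in members (SD over 1121 summits), 38.6% ± 8.61 in shared summits and 36.6% ± 7.37 in those strong in replicate 3 alone. The flanks were alike, at 42.6%, 43.3% and 42.6%. Summit windows averaged 41.8% GC where strong in replicate 1 alone and 42.6% where strong in replicate 2 alone, near the members. Those strong in 1 and 3 without 2 averaged 37.0%, and those strong in 2 and 3 without 1 averaged 39.1%. As whole sets, strong summits averaged 39.7% GC in replicate 1, 40.3% in replicate 2 and 37.8% in replicate 3. Within bins of GC content the CAGGTA shares of members and shared summits were closer. They were 5.63% of members and 4.14% of shared summits under 35% GC, 10.8% and 7.46% from 35% to 40%, 18.2% and 14.04% from 40% to 45%, and 19.3% and 17.2% from 45% to 50%. At 50% GC or more the order turned, with 17.0% of members and 20.4% of shared summits. Summits strong in replicate 3 alone had 3.27%, 3.42%, 7.05%, 4.32% and 13.4% in the same 5 bins, below members in each. In the same 5 bins TAATTA was in 27.5%, 22.3%, 15.4%, 13.4% and 7.23% of members. For shared summits the shares were 27.98%, 17.6%, 13.6%, 14.7% and 15%. Members were thus higher in TAATTA from 35% to 45% GC and lower in the other bins. The part of GC content in the differences between sets was not tested beyond these bins.

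Strength and position went with CAGGTA too. Among the stronger part of the strong replicate 1 summits, divided at the middle rank, 22.1% of the 394 members and 11.6% of 2969 shared summits held CAGGTA; among the rest it was 11.8% of members and 6.10% of shared summits. Over 500 bp from a start, 17.3% of members and 12.6% of shared summits held it, and nearer to a start 12.4% of members and 7.34% of shared summits. By kind, CAGGTA was in 14.4% of displaced members, 15.6% of those with only a weaker replicate 3 summit and 17.7% of those with neither. Around the summit, matches in members reached 1.12 per kb at 150 bp on the lower-coordinate side and 0.64 per kb at the summit itself, against 0.53 and 0.55 per kb in shared summits.

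**Figure D5:**
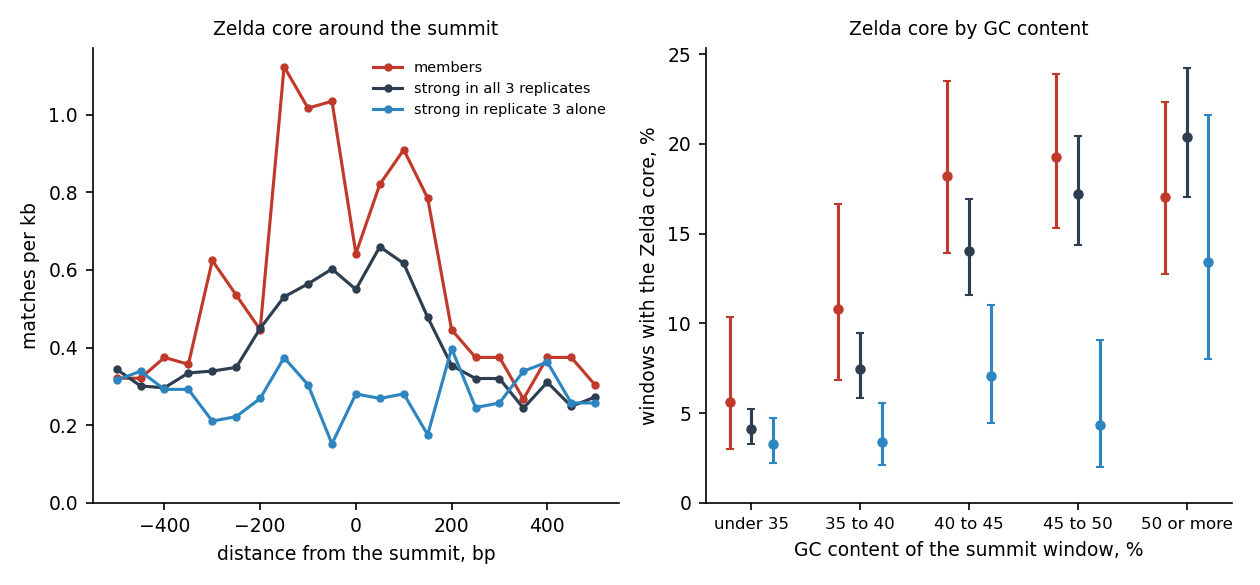
Left, matches to the Zelda core per kb in 50-bp bins by distance from the summit; right, percentage of 201-bp windows with a match in 5 bins of GC content, with 95% Wilson intervals, for members, summits strong in all 3 replicates and summits strong in replicate 3 alone. Members reach 1.12 per kb near the summit, and from 40% to 45% GC they stand at 18.2% against 14.04% in shared summits.

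The 397 displaced members could be set beside their own strong replicate 3 neighbours, a median of 173 bp away. The member window averaged 42.8% GC and the neighbour's 40.9%; the member was the richer of the pair in 216 pairs and the poorer in 168, with 13 equal. CAGGTA was in 57 member windows and 63 neighbour windows, so the surplus of CAGGTA in members was not seen within these pairs. TAATTA was in 61 member windows and 81 neighbour windows. The GC difference was of like size over all strong summits displaced by 101 to 500 bp from a replicate 3 summit, members included. The 726 such replicate 1 summits averaged 41.8% GC and their replicate 3 neighbours 40.1%, with the replicate 1 window the richer in 54.4% of pairs, the same share as for members. The 884 such replicate 2 summits averaged 42.1% and their replicate 3 neighbours 39.5%. Between replicates 1 and 2 the 673 displaced pairs averaged 40.5% GC in replicate 1 and 41.2% in replicate 2. The windows of a pair overlap in part, and no test was made.

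Members were next read against genes, with a gene counted when a member lay in its body or within 2000 bp of it. Of 13945 protein-coding genes, 1209 (8.67%) had a member: 1045 had 1, 120 had 2, 34 had 3 and 10 had 4 or more. In 12 lists of patterning and signalling genes, 62 of 135 matched genes had a member, but listed genes were long, with a median of 9416 bp against 2166 bp for all protein-coding genes, and a longer gene offers more room for a summit. Read against the summits themselves, 96 of 494 strong replicate 1 summits at listed genes were members (19.4%), beside the 15.1% of all strong replicate 1 summits.

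The amnioserosa and dorsal ectoderm list, the tissue of zen, had a member at 9 of its 16 genes, and 17 of its 80 strong replicate 1 summits were members (21.3%). These were Doc2, pnr, dpp, Ance, cv-2, ush, peb, Doc1 and mirr. Besides the Doc2 and pnr sites above, the strongest dpp member ranked 1049 in replicate 1 and 930 in replicate 2, with a replicate 3 summit of rank 1594 at 132 bp. The member 369 bp upstream of Ance, which encodes an angiotensin-converting enzyme relative made in the amnioserosa, ranked 1919 in replicate 1 and 1657 in replicate 2. A replicate 3 summit of rank 43 lay 705 bp from it.

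At cv-2, which encodes an extracellular BMP-binding protein, an intronic member ranked 1664 in replicate 1, 2598 in replicate 2 and 8623 in replicate 3. The ush member (u-shaped, a cofactor of Pannier) ranked 5456 in replicate 1 and 490 in replicate 2, and a replicate 3 summit of rank 248 lay 193 bp away. Members near peb (hindsight, a zinc finger gene of the amnioserosa), Doc1 and mirr (an Iroquois homeobox gene) ranked 3020, 4855 and 3952 in replicate 1, and 3334, 3627 and 5054 in replicate 2. The mirr member had a replicate 3 summit of rank 8516 within 1 bp, and Doc1 and peb had none within 100 bp. The zen gene itself had 3 strong replicate 1 summits within 2000 bp, all of them shared by the 3 libraries, and no member.

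In the BMP list 4 of 17 genes had a member, namely shn, dpp, cv-2 and Dad, which encodes the inhibitory Smad, and 11 of 63 summits were members (17.5%). In the EGF receptor list 6 of 11 genes had one (6 of 45 summits, 13.3%): aos, sty, vn and Egfr led by rank. The JNK list had the lowest share, 2 of 27 summits (7.41%), at kay, which encodes Fos, and at the phosphatase gene puc. These lists differ in size and in gene length, and the shares rest on few summits.

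Among patterning genes the Hox list had a member at 7 of 8 genes and 14 of 62 summits (22.6%). Antp had 4 members and Scr 3, the strongest ranking 1050 in replicate 1 and 1850 in replicate 2 for Antp, and 1652 and 1422 for Scr. In the segment polarity list 7 of 15 genes had one (15 of 67 summits, 22.4%), led by fz2, ptc, hh and wg. In the gap and head list 8 of 15 genes had one (8 of 37, 21.6%), led by hkb, cad, Kr and kni. The pair-rule list had 5 of 10 genes (6 of 31, 19.4%), with opa, hry, ftz and slp1 first.

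The member 232 bp upstream of opa, a zinc finger gene that acts late in segmentation, ranked 2284 in replicate 1, 2347 in replicate 2 and 15731 in replicate 3. At ftz the ranks differed between the members' own libraries, 7199 in replicate 1 and 1266 in replicate 2, with a replicate 3 summit of rank 295 at 266 bp. The neurogenic ectoderm list had 6 of 15 genes (10 of 39 summits, 25.6%), led by ths, vn, vnd and SoxN, and 5 of its 10 members lay at ths. The mesoderm list had 6 of 15 genes (7 of 40, 17.5%), with Mef2, wntD, stumps and Tl first. The cellularization list had 5 of 8 genes (6 of 20 summits), slam, fog, bnk and T48 among them, and the list of genes that time zygotic activation 2 of 5 (5 of 24, 20.8%), zld and opa. The strongest member counted for zld ranked 1048 in replicate 1, 1060 in replicate 2 and 8484 in replicate 3, where a strong summit of rank 4818 lay 281 bp away. It lay between genes, past the 3′ end of zld and within 2000 bp of it. The nearest start was that of CG12702, 1126 bp away.

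Some genes held several members. CG42342 had 7 among its 25 strong replicate 1 summits, ths 5 of 11, jing 5 of 32 and Gug 5 of 8. Another 6 genes had 4 members each, among them pnr with 4 of 8, dpp and Antp. In Gug, which encodes the corepressor Atrophin, the 5 members ranked between 5443 and 6949 in replicate 1 and between 2369 and 7007 in replicate 2. In ths, 2 members stood on either side of a single strong replicate 3 summit of rank 4402, 118 bp from one and 102 bp from the other. They lay 5482 bp and 5702 bp downstream of the nearest ths transcript start. The first was 39031 bp downstream of the 5′ end of the gene. Within 50 kb of zen there were 3 members, in CG34297, upstream of Dfd and in pb, and all were weak, with replicate 1 ranks of 6774, 5995 and 6540 and replicate 2 ranks of 5173, 7119 and 7380.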

How the data were processed

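ChIP-seq peak lists of 3 biological replicates of 1 group were used. Per the deposited file notes, peaks were called by the authors on dm6, once for every library and once for the libraries pooled, with shared control alignments, and a set passing an IDR threshold was derived. No name of an aligner or peak caller is given in the sources used here. Each peak's deposited score (signal value) is on a scale specific to its list and served for ranking alone; the 7405 highest per library were called strong, 7405 being the size of the IDR set. No test used the −log10 q-value from the authors. Read counts were not in the lists, and depth is unknown. Summits were placed with Ensembl release 115, coding sequence taking precedence over UTRs, these over other exons, and exons over introns. Of 137 listed gene symbols, 135 were matched. Wilson intervals (95%) and exact binomial tests used scipy 1.17.1, and 0.5 was added to both counts of a log2 ratio. Comparisons between sets had no test. The members and lists were chosen with earlier results of these data known. Named sites were the 25 of lowest summed rank, every dorsal-list gene with a member, up to 4 genes of each other list, the 5 genes with most members (the fifth place being a tie of 6 genes) and members within 50 kb of zen. The sites at CG46443, rpr, phtm, boi, hb, drm and LpR1 and the second dpp site fell outside this rule and were chosen after their values were seen. The steps were tested on simulated data. Alternatives changed the match distance, the number of strong summits (3702 and 10000), the libraries, the start distance, the flank and the gene territory.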

Additional observations from a re-analysis of the deposited data

How the results depend on the processing

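CAGGTA stayed past the threshold in all 15 alternatives, with log2 ratios of 1.19 to 2.08. TAATTA kept its direction, but it passed with a 50-bp match distance (0.36, adjusted p = 0.0231, exact binomial test), with the 10000 strongest summits (0.38, adjusted p = 0.0108) and with the flank on the higher-coordinate side (0.43, adjusted p = 0.0107). Leaving out 1 replicate gave 0.15 to 0.71, and it passed without replicate 2 (0.37) and without replicate 3 (0.71). The other alternatives for it did not pass. The number of members was 643 with a strong set of the stronger ranks alone, cut at the middle rank, 421 when replicate 3 was barred over its full list, 724 with no strong replicate 3 summit within 500 bp (added after seeing the data), and 2298 to 5304 with 1 replicate left out, which loosens the rule: 2623 without replicate 1, 2298 without replicate 2 and 5304 without replicate 3. The share within 500 bp of a start was 42.9% with a 50-bp match distance, 29.1% with that smaller strong set, 40.6% when barred over the full list, and 40.1% to 47.0% with 1 replicate left out. With other start definitions it was 27.2% at 200 bp, 46.5% at 1000 bp and 33.7% for protein-coding starts. The share in introns or between genes and over 500 bp from a start was 53.5% with a 50-bp match distance, 65.01% with that smaller strong set and 49.5% to 55.2% with 1 replicate left out. The share with any replicate 3 summit within 100 bp was 77.9% with a 50-bp match distance, 72.2% with 200 bp, 79.0% with that smaller strong set, 49.8% with 10000, 59.3% on replicate 2 summits, 75% by interval overlap, 79.7% with no strong replicate 3 summit within 500 bp, and 54.4% to 92.1% with 1 replicate left out. This share always counted replicate 3 summits of any strength within 100 bp. Several alternatives changed which replicate 3 summits were barred, among them the 50-bp distance, the other sizes of strong set, interval overlap and leaving out replicate 3. There the share moved in part by definition and is not comparable with that of the members. Of the other 17 motifs, 6 passed for the members, 3 when barred over the full list, and 9 to 11 with 1 replicate left out. Listed genes with a member numbered 56 and 72 with territories of 1000 and 5000 bp, against 62. The cause of the other shifts was not tested. No paired analysis was possible because there was 1 group. Unknown depth limits any statement on absence from replicate 3.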
